A study of Canis lupus familiaris with 29 samples.

Results

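The comparison described here sets AVL9 knockdown cells against wild-type cells of the MDCKII line, a dog kidney epithelial line, at day 0. It uses 6 of the 29 libraries in the study: wild-type day 0 replicates 1 to 4 and the AVL9-KD day 0 libraries numbered 1 and 4, here called line 1 and line 4. They were chosen by genotype and culturing time as given in the labels. The study followed gene expression by mRNA sequencing while MDCKII cells formed cysts in 3D on matrigel or over-confluent layers in 2D on transwell inserts. Day 0 stands for the cells used for seeding, grown in Eagle's medium with serum, before either culture. AVL9-KD cells of the same lines were also taken from 2D culture at day 4 (n = 2, beside 3 wild-type libraries), and DENND5A-KD cells at day 0 (n = 2), and these are used below for comparison. The labels do not say whether the numbers 1 and 4 mark clones, hairpins or guides, and no control line that had gone through the same procedure is among the samples, so loss of AVL9 and passage through the knockdown procedure cannot be told apart. Nor do the labels state that libraries of a group came from separate cultures, and the spread behind each p-value may therefore be technical only.

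AVL9 is a DENN domain protein conserved from yeast to mammals. It is known for a role in the late secretory pathway, and proteins with a DENN domain commonly act as exchange factors that switch RAB GTPases on. RAB GTPases direct vesicles between the Golgi, endosomes and the plasma membrane, and in MDCK cells, which form a lumen lined by an apical membrane, this traffic separates the apical from the basolateral surface. DENND5A, the other gene knocked down in the study, belongs to the same family.

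AVL9 (ENSCAFG00000003143) was expressed at 23.7, 23.6, 22.2 and 22.6 FPKM (fragments scaled to transcript length and to library size) in wild-type replicates 1 to 4, and at 7.21 and 5.7 FPKM in AVL9-KD lines 1 and 4. Both knockdown libraries lay below all wild-type libraries. On the log2(FPKM + 1) scale, used for every difference below, AVL9 fell by 1.70 ± 0.14 (SE; limma, adjusted p = 1.00e-07), by 1.55 in line 1 and by 1.84 in line 4. Line 4 minus line 1 was -0.29 ± 0.23, with 1 library each, so no order of the lines is claimed. The log2(FPKM + 1) scale understates the change of genes with low FPKM. A gene is said to have risen or fallen when its limma test, adjusted by Benjamini-Hochberg over all 10554 tested genes, gave an adjusted p under 0.05. Tested genes had at least 1 FPKM in at least 2 of the 6 libraries.

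The epithelial label was borne out by markers. Of 11 kidney epithelial markers 10 reached 1 FPKM in at least 2 of the 6 libraries, with a summed level of 1133 to 1335 FPKM in wild type, 1142 in line 1 and 1067 in line 4. EPCAM alone read 225 to 280 FPKM in wild type and 329 and 251 in lines 1 and 4. The 10 leukocyte and 5 smooth muscle markers did not reach 1 FPKM in 2 libraries, and PTPRC, TYROBP and CD3E were at 0 in all 6. Of 9 fibroblast markers FBLN1 was the single one expressed (5.76, 5.16, 8.76 and 3.85 FPKM in wild type, 9.59 and 15.6 in lines 1 and 4), with DCN, LUM and COL1A2 under 0.1 FPKM, and of 9 endothelial markers FLT1 was (34.6 to 44.1 in wild type, 29.8 and 49.6 in lines 1 and 4), with PECAM1 under 0.1 FPKM.

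On the deposited scale the median gene differed between libraries, and this bears on every count below. Whether this shift lies in the scaling or in expression was not tested. Total FPKM ran from 308001 to 368572 in wild type and was 370862 and 372103 in lines 1 and 4, and 10163 to 10286 genes reached 1 FPKM. Relative to the wild-type mean, the median difference over all tested genes was 0.04, 0.07, -0.02 and -0.09 in wild-type replicates 1 to 4, 0.11 in line 1 and 0.15 in line 4. Both knockdown libraries therefore sat above all wild-type libraries by the median gene, and the median difference of the comparison was 0.13, against 0.01 after median-ratio scaling. Wild-type replicate 1 stood apart in single genes: TIMM13, a mitochondrial import chaperone, was listed at 0 there and at 66.8 to 143 FPKM in the other wild-type libraries, and TMSB10, a thymosin, read 180 against 2006 to 2248. With that replicate and the 4 wild-type libraries of other groups that share this pattern left out, here called the 5 libraries set apart, 2682 genes were called at day 0, against 2120 with them.

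**Figure D1:**
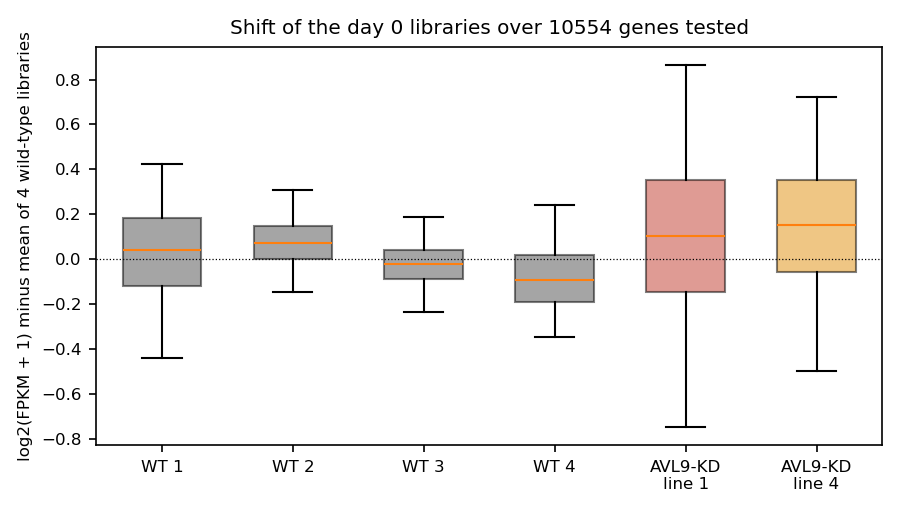
Difference of each day 0 library from the mean of the 4 wild-type libraries, in log2(FPKM + 1), over all tested genes (line, median; box, quartiles; whiskers, 5th to 95th percentile). The medians of line 1 (0.11) and line 4 (0.15) lie above those of all wild-type libraries (-0.09 to 0.07); wild-type boxes are narrower in part because those libraries make up the mean.

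Of 10554 genes 2120 changed (20.1%): 1576 rose (14.9%) and 544 fell (5.15%) in AVL9-KD cells. After quantile normalization the total was much the same but the split was not, with 982 higher and 1048 lower of 2030, and after median-ratio scaling 1103 were higher and 1155 lower of 2258. The excess of higher genes was thus present on the deposited scale and not after either scaling. Of the 1576 higher genes 955 remained higher after quantile normalization, and of the 544 lower genes 541 remained lower. In 1999 genes (18.9%) the call came with no overlap between the 6 libraries, and 214 genes rose and 121 fell at least 2-fold. Whether called or not, both knockdown libraries lay above all wild-type libraries in 28.5% of genes and below them in 9.12%. Both lines lay on the same side of the wild-type mean in each of the 2120 genes. The calls were made on the mean of these same lines, so genes whose lines disagree were unlikely to be called. This count is therefore no measure of how well the lines agree. Line 1 weighed more: without it 769 genes were called, against 1632 without line 4 and 1331 without wild-type replicate 4, and fitting the 6 libraries alone left 552.

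Among genes with a symbol, chosen for groups that did not overlap, those that rose most were a mixture of cell-surface proteins, transcription factors and secreted signals. SPINK6, a secreted inhibitor of serine proteases, read 4.46, 4.69, 2.54 and 0.218 FPKM in wild-type replicates 1 to 4 and 52.1 and 24.8 in AVL9-KD lines 1 and 4, a difference of 3.44 ± 0.44 (adjusted p = 1.75e-05). STEAP2, a metalloreductase of iron and copper, read 2.36, 2.05, 1.16 and 2.06 FPKM in wild type and 31.1 and 16.8 in the lines (3.06 ± 0.25, adjusted p = 4.74e-08). In both genes line 1 was higher than line 4 and every knockdown library was above every wild-type one. EPAS1, which encodes the hypoxia-inducible factor HIF-2 alpha, was close to absent in wild type (0.0328, 0.152, 0.054 and 0.0588 FPKM) and read 8.99 and 6.77 in lines 1 and 4 (3.04 ± 0.15, adjusted p = 9.88e-11). CD55, the complement decay-accelerating factor, rose from 46.5, 26.2, 24.6 and 16 to 288 and 148 FPKM (2.92 ± 0.30). CDH2, which encodes N-cadherin, rose from 7.88, 4.05, 1.67 and 1.94 to 37.2 and 24.7 FPKM (2.86 ± 0.45). Among these 5 genes wild-type replicate 4 had the lowest SPINK6 and CD55. In bulk RNA, a change in every cell and a change in the number of expressing cells cannot be told apart.

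MSC, a basic helix-loop-helix transcription factor, was listed at 0 in 3 wild-type libraries and at 0.0336 FPKM in replicate 2, and read 13.6 and 2.61 FPKM in lines 1 and 4. VGLL3, a cofactor of TEAD transcription factors, rose from 1.03, 0.865, 0.605 and 1.12 FPKM to 16.8 and 5.94 (2.55 ± 0.34). UBASH3B, a tyrosine phosphatase, rose from 0.956, 1.31, 1.05 and 0.945 to 9.55 and 10.1 FPKM (2.39 ± 0.16), and was among the few of these genes with nearly the same level in both lines. FAM171B did likewise (0.687, 0.987, 0.637 and 0.864 to 6.92 and 7.8 FPKM, 2.22 ± 0.14), while the cell-surface gene IGDCC4 was higher in line 1 (0.886, 0.781, 0.758 and 0.315 to 15.9 and 6.51 FPKM, 2.76 ± 0.28). DHRS2, a dehydrogenase, read 19, 24.7, 19.7 and 7.15 FPKM in wild type and 146 and 67.3 in the lines, and its call was lost without line 1 (adjusted p = 0.054). The small Cajal body RNA SCARNA23 read 0, 6.88, 0 and 0 FPKM in wild type and 8.18 and 8.27 in the lines, and its call was lost without either line or without wild-type replicate 3 or 4 or the 5 libraries set apart (adjusted p up to 0.13). Of the genes with no symbol in the files, ENSCAFG00000008335 rose from 2.87, 4.19, 0.633 and 0.514 FPKM to 182 and 52.1 (5.21 ± 0.47), and ENSCAFG00000022486 was listed at 0 in all wild-type libraries and read 53.4 and 46.6 FPKM in lines 1 and 4 (adjusted p = 0.026).

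Genes that fell most included immediate early factors, a claudin and matrix proteins. CLDN2, the claudin that forms cation-selective pores in leaky tight junctions, read 6.54, 15.5, 14.3 and 22.4 FPKM in wild type, was listed at 0 in line 1 and read 0.054 FPKM in line 4 (-3.82 ± 0.29, adjusted p = 2.71e-08). VCAN, the matrix proteoglycan versican, fell from 37.7, 60.6, 37 and 67.9 to 4.47 and 2.49 FPKM (-3.52 ± 0.59). CHRM4, a muscarinic acetylcholine receptor, fell from 13.7, 43, 33.2 and 53.7 to 1.55 and 2.74 FPKM (-3.43 ± 0.32). In CLDN2 and CHRM4 the lowest wild-type library was replicate 1, and in all 3 genes the groups were well apart. SFTPD, the collectin surfactant protein D, fell from 35.3, 59.5, 67.4 and 67.4 to 9.39 and 9.68 FPKM (-2.43 ± 0.27). EGF, the growth factor precursor made by distal tubule cells, fell from 8.13, 11.9, 10.7 and 14.9 to 1.09 and 1.64 FPKM (-2.37 ± 0.19). CDH17, a cadherin of intestinal epithelium, fell from 17.1, 17.9, 15.8 and 17 to 1.23 and 4.74 FPKM (-2.33 ± 0.28), further in line 1. The synuclein SNCG fell from 5.7, 9.26, 7.37 and 8.39 to 1.6 and 0.247 FPKM (-2.25 ± 0.28), further in line 4.

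PALM3, a paralemmin of the plasma membrane, read 3.76, 6.43, 4.68 and 6.57 FPKM in wild type and 0.199 and 0.2 in lines 1 and 4 (-2.38 ± 0.19). PRR15L read 15.8, 10.6, 6.85 and 14.6 FPKM in wild type, was listed at 0 in line 1 and read 2.61 in line 4 (-2.71 ± 0.37). GAL3ST2, a sulfotransferase, was listed at 0 in line 1 and read 8.34 FPKM in line 4, just under the 18.8, 14.4, 14.1 and 10 FPKM of wild type, and its call was lost without line 1 (adjusted p = 0.55). The small nucleolar RNA SNORA58 was listed at 0 in both lines and read 78.6, 3.63, 9.01 and 3.72 FPKM in wild type, and its call was lost without either line (adjusted p = 0.093 without line 1 and 0.063 without line 4). Of the genes with no symbol, ENSCAFG00000023282 fell most (20.6, 32.4, 33.6 and 44.9 FPKM in wild type, 0.731 and 6.64 in the lines, -3.17 ± 0.39).

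**Figure D2:**
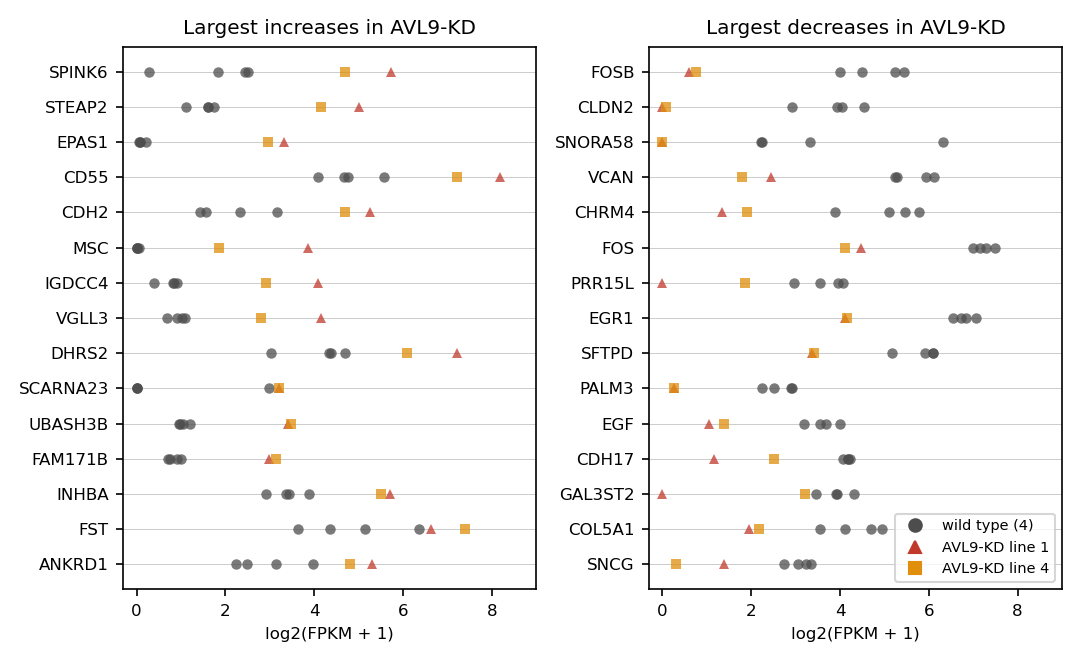
Level in each day 0 library of the 15 genes with a symbol of their own that rose (left) or fell (right) most, among those called with no overlap between groups and at least 5 FPKM in the higher group, as log2(FPKM + 1): wild-type libraries as circles, AVL9-KD line 1 as triangles, line 4 as squares. That the groups do not overlap was a condition for the choice of these genes; SCARNA23 is the closest on the left, with wild-type replicate 2 at 6.88 FPKM beside 8.18 and 8.27.

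The immediate early transcription factors are induced within minutes by growth factors, stress or handling. FOS read 141, 127, 155 and 179 FPKM in wild-type replicates 1 to 4 and 21.3 and 16.3 in lines 1 and 4 (-2.94 ± 0.19, adjusted p = 4.16e-09). FOSB read 21.6, 15.1, 42.4 and 36.5 FPKM in wild type and 0.52 and 0.691 in the lines (-4.11 ± 0.28). EGR1 read 92.4, 114, 104 and 133 FPKM in wild type and 16.4 and 16.9 in the lines (-2.65 ± 0.20). These 3 fell together, by 2.65 to 4.11, in both lines alike, with every wild-type library far above the knockdown ones. Of the 19 tested genes of the immediate early and AP-1 list 5 fell and 1 rose, with a median of -0.27 against 0.13 over all genes tested. After quantile normalization 8 fell and none rose, and after median-ratio scaling, without wild-type replicate 1 or without the 5 libraries set apart 7 fell and 1 rose. The others that fell were the phosphatase gene DUSP1 (-0.83) and the mRNA decay factor ZFP36 (-0.51), and IER3 rose (1.08). JUN (-0.53), JUNB (0.17), ATF3 (-0.24) and MYC (0.37) did not pass. Without line 4 the count was 3 lower and 1 higher, without wild-type replicate 4 it was 3 and 0, and without line 1 it was 4 and 0.

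Among tight junction genes CLDN2 had by far the largest difference. Of 15 tested, 3 fell and 1 rose (median -0.07): CLDN2, the junctional adaptor CGN (cingulin; 28.8, 33.2, 31.4 and 30.2 FPKM in wild type, 22 and 17.9 in the lines, -0.61 ± 0.12) and CLDN3 (-0.52) fell. After quantile normalization 6 fell and none rose, and without line 1 the list had 2 lower and none higher. The sealing components OCLN (0.05) and TJP1 (0.00) did not pass. Of 16 adherens junction and desmosome genes 2 rose and 1 fell, against 1 higher and 3 lower after quantile, median-ratio or trimmed-mean scaling: CDH6, the kidney cadherin, fell from 104, 139.9, 122 and 134 to 63.5 and 69.4 FPKM (-0.89 ± 0.18), while the desmosomal genes DSC3 (0.58) and PKP2 (0.55) rose, PKP2 chiefly in line 1 (40.2 FPKM, against 24.7 in line 4 and 21.3 ± 3.24 (SD, n = 4) in wild type). PKP2 was not called after quantile normalization (adjusted p = 0.11), median-ratio (0.07) or trimmed-mean scaling (0.078), nor without the 5 libraries set apart (0.055). E-cadherin (CDH1, 0.05) did not pass. Without line 1, CDH6 alone was called. Of 13 polarity genes DLG1 (0.44) and LLGL2 (0.34) rose and 11 did not pass, and after quantile normalization 1 was higher and 1 lower. LLGL2 was not called after quantile normalization (adjusted p = 0.24) or without the 5 libraries set apart (0.069).

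Of 10 tested genes of the apical membrane 2 fell and 1 rose, and 4 fell and 1 rose after quantile, median-ratio or trimmed-mean scaling. PODXL, which encodes the apical sialomucin podocalyxin, read 74.8, 110.1, 84.4 and 133 FPKM in wild type and 28.2 and 64.3 in lines 1 and 4 (-1.18 ± 0.25); it was lower in line 1 than in line 4, and its call was lost without line 1 (adjusted p = 0.15). USH1C, the microvillar scaffold harmonin, fell from 2.28, 4.4, 4.78 and 4.63 to 0.0301 and 0.471 FPKM (-1.99 ± 0.37). Without line 1 the apical list had 1 higher and 1 lower. DPP4, a brush border peptidase, rose from 0.428, 0.429, 0.519 and 0.292 to 8.16 and 2.66 FPKM (2.03 ± 0.22). Of 11 genes of tubular transport 3 fell and none rose (median -0.32; 1 was higher at an unadjusted p under 0.05): the cotransporter gene SLC12A2 (-0.60), carbonic anhydrase CA2 (-0.83) and the sodium pump subunit FXYD2 (-1.91). After quantile normalization 5 fell. None of these 3 was called without wild-type replicate 4, and both SLC12A2 and CA2 overlapped between groups. Of 23 kidney and epithelial transcription factors 5 fell and 2 rose (median -0.18), after quantile normalization 10 fell and 2 rose, and without line 1 the count was 1 and 2. HOXD8 rose from 12.3, 12.5, 11.9 and 11.7 to 25.8 and 21.6 FPKM (0.91 ± 0.13).

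Genes of cell adhesion to matrix included 9 integrin and focal adhesion genes that rose. Of 17 tested integrin and focal adhesion genes 9 rose and 1 fell (median 0.40), against 14.9% of all genes higher; after quantile normalization 4 rose and 2 fell, without line 1 it was 3 and 0. ITGAV, the integrin alpha V chain, read 16, 19.7, 15.8 and 19.7 FPKM in wild type and 32.3 and 44.4 in lines 1 and 4 (1.06 ± 0.14). ITGA6, the laminin receptor chain, read 12.4, 11.4, 11 and 8.59 FPKM in wild type and 19.9 and 22.8 in the lines (0.92 ± 0.17). The kindlin gene FERMT1 (0.86) also rose. All 3 had both lines above all wild-type libraries, and ITGAV and ITGA6 kept their call under every alternative run.

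In the extracellular matrix list 8 of 22 tested genes rose and 2 fell (median 0.25), and 7 rose and 2 fell after quantile normalization, but 1 rose and 2 fell without line 1. The 2 chains of collagen V went in opposite directions. COL5A1 fell from 10.7, 24.8, 16.4 and 29.7 to 2.89 and 3.49 FPKM (-2.26 ± 0.24), whereas COL5A2 rose from 94.3, 115, 95.9 and 131 to 314 and 187 FPKM (1.16 ± 0.19). COL18A1, a basement membrane collagen, fell from 2.97, 5.96, 3.76 and 11.3 to 0.256 and 0.57 FPKM (-2.17 ± 0.37). Others that rose included the basement membrane collagens COL4A1 (1.74) and COL4A2 (1.88), the laminin chain LAMA3 (0.72), the metalloproteinase inhibitor TIMP3 (1.63) and the crosslinking enzyme LOX (1.20). FN1 (0.40) did not pass. Of 6 mesenchymal markers CDH2 and SNAI1, a repressor of E-cadherin, rose: SNAI1 read 1.12, 1.02, 1.24 and 0.447 FPKM in wild type and 5.77 and 2.74 in the lines (1.38 ± 0.25). VIM (0.31) did not pass, and TGFBI fell by 0.62 with a call that was lost without either line and without wild-type replicate 2 or 4 (adjusted p up to 0.22).

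Of 17 targets of YAP and TAZ, the coactivators of the Hippo pathway, 5 rose and 1 fell (median 0.37), the same counts as after quantile normalization, with 5 and 3 after median-ratio scaling. F3, which encodes tissue factor, read 182, 214, 187 and 134 FPKM in wild type and 625 and 711 in lines 1 and 4 (1.91 ± 0.18). NUAK2, a kinase, read 28.8, 28.3, 27.5 and 26.5 FPKM in wild type and 58.4 and 59.4 in the lines (1.06 ± 0.19). ANKRD1 rose from 14.8, 7.86, 3.75 and 4.58 to 38.5 and 26.8 FPKM (2.09 ± 0.39). The wild-type range was narrow in NUAK2 and wide in ANKRD1, where replicate 1 was highest. CTGF (0.08), a target commonly used to read this pathway, did not pass, and without line 1 the list counted 3 higher and none lower. Of 22 genes of the actin cytoskeleton 3 rose and 1 fell (median 0.07), 1 rose and none fell after quantile normalization, and none was called without line 1.

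The TGF-beta, BMP and ID list had 9 of 17 tested genes higher and 2 lower (median 0.72), with 8 and 2 after quantile normalization and 5 and 1 without line 1. Among ligands, INHBA, the subunit of activin A, read 13.8, 9.71, 9.26 and 6.56 FPKM in wild type and 51.2 and 44.1 in lines 1 and 4 (adjusted p = 2.91e-07), and BMP4 read 23.2, 21.2, 16.3 and 13.9 and 41.3 and 37 FPKM (1.06 ± 0.17). Secreted antagonists rose as well: FST (follistatin), which binds activin, rose from 81.1, 19.5, 34.5 and 11.4 to 98.5 and 167 FPKM (2.14 ± 0.52), with replicate 1 close to line 1 and a call lost without line 4 (adjusted p = 0.084), and NOG (noggin), which binds BMPs, rose by 1.08. The receptors TGFBR1 (0.84) and TGFBR2 (0.72) rose. The BMP target ID3 fell from 47.8, 30.1, 34.4 and 32.7 to 11.8 and 13 FPKM (-1.45 ± 0.24), and the inhibitory SMAD6 fell by 0.44. ID3 kept its call under every alternative run, while the list had 1 lower gene, not 2, without either line, without wild-type replicate 1, 2 or 4 and without the 5 libraries set apart. SMAD7 (-0.19) and BMP2 (-0.11) did not pass.

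Of 19 genes of the EGF family and ERK feedback 4 rose and 2 fell (median 0.20), with 3 and 3 after quantile normalization; the list does not hold EGF itself, which fell as given above. NRG1, a ligand of ERBB receptors, rose from 18.2, 26.2, 25.4 and 24.2 to 60.3 and 42 FPKM (1.08 ± 0.22), while the receptor ERBB2 fell from 11.7, 17.7, 15.1 and 17.5 to 10.5 and 9.21 (-0.59 ± 0.15) and ERBB3 fell by 0.58. PHLDA1 rose from 27.1, 29.7, 27.9 and 17.8 to 54.2 and 58.2 FPKM (1.13 ± 0.22). The feedback phosphatase DUSP6 (0.37) and EGFR (0.18) did not pass. Without line 1 the list had 1 higher and 2 lower. Of 10 Wnt genes 2 rose and 2 fell (median 0.05), with 1 and 3 after median-ratio scaling, 3 and 4 without wild-type replicate 1 and 2 and 4 without the 5 libraries set apart. RNF43, a ligase that removes Wnt receptors, fell from 2.09, 3.35, 3.37 and 3.6 to 1.07 and 0.537 FPKM (-1.18 ± 0.14). The ligand WNT7A rose from 18.5, 15.2, 14.9 and 12.1 to 31.5 and 31.8 FPKM (1.03 ± 0.25), a call lost without line 1 (adjusted p = 0.068), where the list counted 1 higher and 1 lower.

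Of the gene lists other than cell type markers, p53 targets had the highest share of higher genes. Of 17 targets 10 rose and none fell (median 0.69), beside 14.9% of all genes higher and 5.15% lower. The integrin and TGF-beta lists followed closely, with 9 of 17 higher in each. No p53 target was lower at an unadjusted limma p under 0.05 either. Counts were the same after quantile normalization, after median-ratio scaling and without wild-type replicate 1. With the 6 libraries alone 4 rose and none fell. CDKN1A, the cell cycle inhibitor p21, read 13.1, 11, 16.9 and 8.32 FPKM in wild-type replicates 1 to 4 and 39.9 and 33.5 in lines 1 and 4 (1.53 ± 0.29, adjusted p = 0.001). CCNG1, cyclin G1, read 75.8, 64.2, 74.5 and 54.6 FPKM in wild type and 201 and 147 in the lines (1.35 ± 0.15). BAX, a mediator of apoptosis, read 24.9, 33.3, 34.1 and 26.5 FPKM in wild type and 67.7 and 48.3 in the lines (0.93 ± 0.14). The lines were above all wild-type libraries in these 3, and CCNG1 and BAX were higher in line 1. MDM2, the ligase that degrades p53, rose by 0.69, TIGAR by 0.81, ZMAT3 by 0.98, AEN by 1.04, PLK2 by 0.98, FAS by 0.57 and SESN1 by 0.46. GADD45A (-0.14) and DDB2 (-0.18) did not pass. The count was 5 without line 1 and 8 without line 4. Of 22 mitosis genes none was called or had an unadjusted p under 0.05 by limma (median 0.12), and of 22 genes of DNA replication CDC45 (0.68) and POLD1 (0.47) rose, with 0 higher and 2 lower after quantile normalization and no call without line 1 or without wild-type replicate 4.

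Of 19 targets of NRF2 and AHR, regulators of the response to oxidants and xenobiotics, 8 rose and none fell (median 0.39), with 7 and none after quantile normalization. PIR, an iron-binding nuclear protein, read 17.9, 40.8, 33.2 and 18.6 FPKM in wild type and 87.4 and 103 in lines 1 and 4 (1.83 ± 0.28). GCLC, the catalytic subunit of glutathione synthesis, read 31.5, 60, 47.8 and 42.8 FPKM in wild type and 100.3 and 80.4 in the lines (1.00 ± 0.21). TXNRD1, thioredoxin reductase, rose from 40.4, 46.5, 39.1 and 32.8 to 108 and 57.7 FPKM (0.98 ± 0.21). The glutathione synthesis subunit GCLM (0.73) rose too, while NQO1 (0.58) and the AHR target CYP1A1 (-0.36) did not pass. Without line 1 the count was 2, and both GCLC (adjusted p = 0.061) and TXNRD1 (0.16) lost their call.

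The list of NF-kB targets and cytokines depended on line 1. Of 16 tested genes 7 rose and 2 fell (median 0.69; 1.08 in line 1 and 0.33 in line 4); without line 4 the count was 9 and 0, and without line 1 it was 1 and 1. PTGS2, the inducible cyclooxygenase, was the higher gene that passed without line 1, at 68, 57.6, 56.5 and 29.4 FPKM in wild type and 202 and 174 in lines 1 and 4 (1.87 ± 0.34). LIF read 8.56, 7.99, 4.5 and 8.01 FPKM in wild type and 23.1 and 12.7 in the lines (1.17 ± 0.26), and CSF2, the cytokine GM-CSF, read 16.9, 18.1, 8.56 and 9.72 and 57.4 and 29.6 FPKM (1.63 ± 0.36). Both lost their call without line 1 (adjusted p = 0.14 and 0.12). ICAM1 read 86.1 FPKM in line 1, 33.5 in line 4 and 26.5 ± 7.06 (SD, n = 4) in wild type, and SOD2 99.8, 51.2 and 39.3 ± 5.67. IL1RL1, the receptor of interleukin 33, fell by 0.99, and NFKBIA (0.52) and TNFAIP3 (-0.05), feedback inhibitors of NF-kB, did not pass.

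Genes of the Golgi and of secretory traffic, in which AVL9 itself acts, were split differently on the deposited scale and after scaling. Of 39 genes of the Golgi, its coats and sorting 3 rose and none fell (median 0.06; at an unadjusted p under 0.05, 8 were higher and none lower), and after quantile normalization 2 rose and 6 fell. GORASP2, a protein that stacks Golgi cisternae, stood out, at 41.2, 37.7, 34.3 and 33 FPKM in wild type and 76.5 and 81.8 in lines 1 and 4 (1.10 ± 0.12, adjusted p = 4.31e-06). Its paralog GORASP1 (-0.08) did not pass. The COPII coat genes SEC23A (0.54 ± 0.12) and SAR1B (0.44 ± 0.14) rose. SAR1B was called in 10 of 18 alternatives. It was not called by limma after quantile normalization (adjusted p = 0.10), median-ratio (0.06) or trimmed-mean scaling. Of 29 genes of apical trafficking and the exocyst 2 rose and 1 fell (median 0.06), and 1 rose and 4 fell after quantile normalization: SYTL2, a RAB27 effector at the apical membrane, fell from 2.42, 4.94, 4.05 and 6.4 to 1.93 and 0.674 FPKM (-1.25 ± 0.23), and RAB27B (0.84) and RAB11FIP5 (0.40) rose, with neither of the higher calls left without line 1. RAB27B in particular was called in 4 of 17 alternatives. RAB8A (0.15) and RAB11A (0.13), which carry cargo to the apical surface, with RAB35 (-0.02), and RAB39A (-0.02), of the RAB39 group on which DENND5A acts, did not pass. Of 24 genes of lysosomes and the proton pump 3 rose and 1 fell (median 0.01), 2 and 2 did so after quantile normalization, and 1 and none did so without line 1.

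Within the DENN family 3 of 19 tested genes fell and 3 rose (median 0.08). Besides AVL9, DENND6A, an exchange factor of RAB14, fell from 10.4, 12.6, 12.4 and 14.3 to 7.39 and 6.92 FPKM (-0.71 ± 0.12), and kept its call under every alternative run. DENND1B, an exchange factor of RAB35, fell from 4.12, 6.6, 6.06 and 6.65 to 2.36 and 4.01 FPKM (-0.72 ± 0.17), with a call lost without line 1 (adjusted p = 0.19). DENND5A rose from 5.01, 6.89, 4.98 and 5.59 to 8.88 and 7.97 FPKM (0.52 ± 0.13), likewise not called without line 1 (0.1). The other 2 that rose were MADD (0.38) and DENND3 (0.38), and 1 of the family rose and 3 fell after quantile normalization, without line 4 and without wild-type replicate 3 or 4, with 1 and 2 without line 1. The 13 other members, among them DENND5B (-0.17), DENND6B (0.36) and DENND1A (-0.14), did not pass. Of 29 genes of the primary cilium 4 rose and 2 fell (median -0.03). TTC21B, a subunit of retrograde intraflagellar transport, rose from 3.56, 3.5, 3.29 and 3.54 to 6.76 and 6.93 FPKM (0.81 ± 0.11). Without line 1 the cilium list had 2 higher and 1 lower.

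In the metabolic and stress lists at most 6 members were called at day 0. Of 18 glycolysis and hypoxia genes 4 rose and none fell (median 0.20), and none was lower at an unadjusted limma p under 0.05. They were led by EGLN3, a prolyl hydroxylase induced by hypoxia-inducible factors. EGLN3 read 6.24, 7.6, 4.7 and 5.37 FPKM in wild type and 26.8 and 13.8 in the lines (1.56 ± 0.31). Without line 1 fewer members were called, and EGLN3 was not among them (difference 1.10). VEGFA (0.23) and SLC2A1 (0.06) did not pass. Of 18 oxidative phosphorylation genes 4 rose (median 0.29), but 1 did so after quantile normalization or without line 1, and none without line 4 or wild-type replicate 4. None of 15 ribosomal protein genes, whose reads can be shared with processed copies, was called by limma (median 0.30; 4 were higher at an unadjusted p under 0.05). Of 21 cholesterol synthesis genes PMVK fell (-0.75), with a median of -0.33 in line 1 and 0.31 in line 4; 4 fell after quantile, median-ratio or trimmed-mean scaling, and 6 without line 4. Of 29 interferon-stimulated genes 6 rose (median 0.24), with 2 after quantile normalization, without line 1 or without wild-type replicate 4 and 3 without wild-type replicate 1 or 3. IFIH1, a sensor of viral RNA, rose from 4.35, 5.76, 4.73 and 4.67 to 13.9 and 13.4 FPKM (1.32 ± 0.11) and kept its call under every alternative run, while ISG15 (1.09 ± 0.37) was called in 7 of 18 alternatives. Among 11 heat shock genes the chaperone HSPH1 fell (-1.02, but -0.36 without line 1) and HSPB8 rose (0.49). HSPB8 was called in 10 of 18 alternatives, and not by limma after quantile normalization (adjusted p = 0.09) or trimmed-mean scaling. Among 18 endoplasmic reticulum chaperones and related genes DNAJB11 rose (0.37) and HERPUD1 fell. DNAJB11 was not called by limma after quantile normalization (adjusted p = 0.12), median-ratio (0.058) or trimmed-mean scaling. HERPUD1 was not called without the 5 libraries set apart (adjusted p = 0.054), and its difference was -0.31 without line 4. Of 6 genes of TXNIP and alpha-arrestins ARRDC3 fell (-0.54), against 4 that fell after quantile, median-ratio or trimmed-mean scaling.

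**Figure D3:**
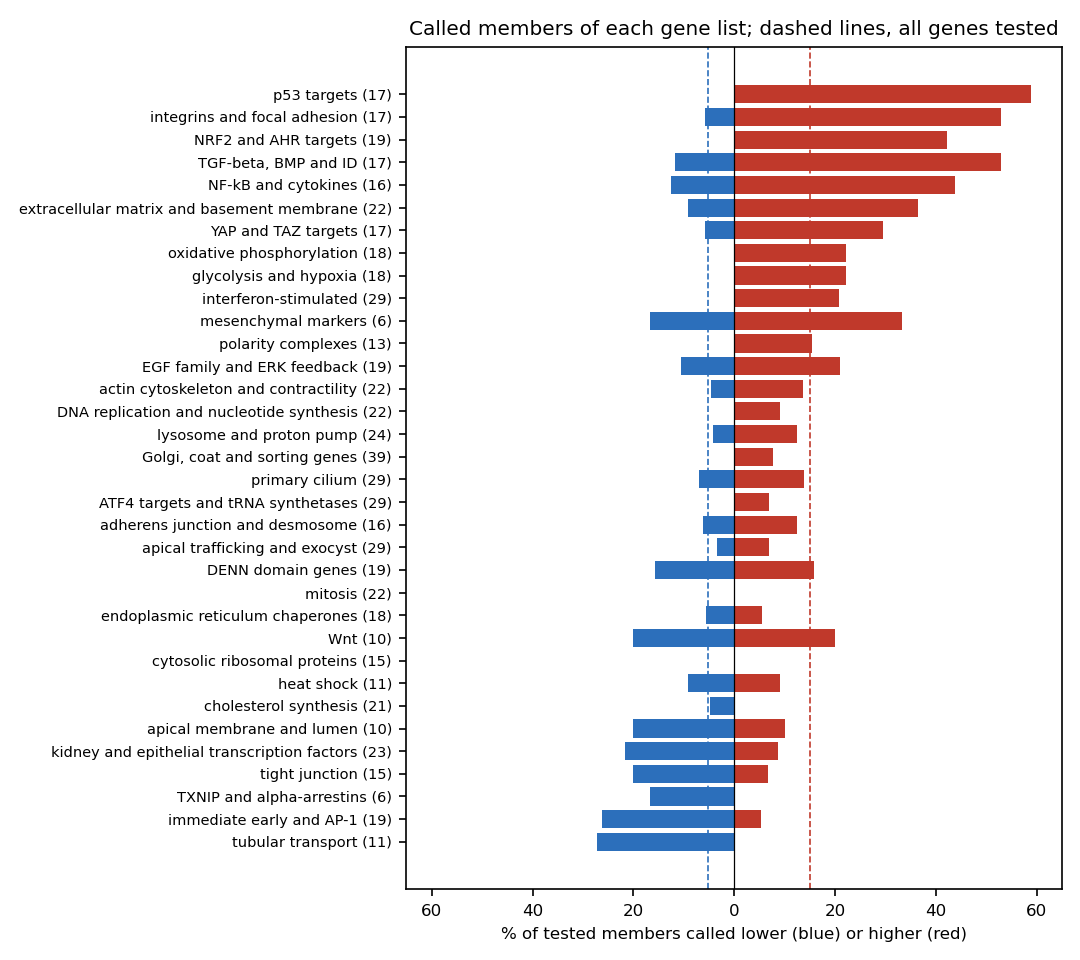
Share of the tested members of each gene list (number in brackets) that were called higher (red) or lower (blue) in AVL9-KD cells at day 0, with the shares over all tested genes as dashed lines (14.9% higher, 5.15% lower). p53 targets extend furthest on the higher side, with 10 of 17.

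Taken one line at a time, 1632 genes differed from wild type in line 1 (15.5%; 1005 or 9.52% higher, 627 or 5.94% lower) and 770 in line 4 (7.3%; 579 or 5.49% higher, 191 or 1.81% lower). After quantile normalization the split was 856 higher and 1015 lower in line 1 and 379 and 386 in line 4. The 2 single-line comparisons share their wild-type libraries, and each rests on 1 library that is assumed to vary like the others. Called against wild type in each line were 335 genes higher in both (3.17%), 119 lower in both (1.13%) and 1 in opposite directions (0.00948%). Line 1 and line 4 themselves differed in 98 genes (0.929%), of which 66 (0.625%) were higher in line 4 and 32 (0.303%) in line 1; 154 to 239 were called after the 3 scalings. TRIP12, a ubiquitin ligase, read 1.41 and 26.1 FPKM in lines 1 and 4 against 18.8, 26, 22.2 and 21.1 in wild type, so that line 1 alone was low (line 4 minus line 1, 3.49 ± 0.65, adjusted p = 0.017). S100A4, a calcium-binding protein, read 0.832 and 62.6 FPKM in the lines and 31.9, 25.7, 32.6 and 16.1 in wild type (5.12 ± 1.02). The gap junction gene GJB2 read 0.503 and 7.49 FPKM and 7.1, 5.25, 3.99 and 5.19 in wild type. NXPH2 (0.799 and 8.02 FPKM in lines 1 and 4) and NDNF (2.29 ± 0.54) were also higher in line 4.

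Higher in line 1 were the chemokine CCL7 (37.7 and 0.736 FPKM in lines 1 and 4, 0, 2.81, 0.994 and 1.89 in wild type; -4.48 ± 0.98) and the hypoxia-inducible peptide hormone ADM (68 and 6.74 FPKM, 4.61, 17.1, 8.88 and 20.1 in wild type; -3.16 ± 0.66). For S100A4, TRIP12, GJB2, NXPH2, NDNF, CCL7 and ADM the direction of the combined difference from wild type turned when line 1 was left out. GRHL3, an epithelial transcription factor (6.04 and 1.21 FPKM), RNase_MRP (9.65 and 1.71 FPKM) and MSC were also higher in line 1, and MSC was above wild type in both lines. Most differences between lines had the same sign at 2D day 4, in other libraries of the same lines: 89 of the 98 genes did. The share of all tested genes with the same sign is not given here. How far 89 of 98 exceeds that share therefore cannot be read from this count. TRIP12 read 2.4 and 22 FPKM in lines 1 and 4 at day 4, S100A4 0.568 and 20.2, and CCL7 24.7 and 2.34. Across all 10554 genes, which are not independent replicates, the line difference at day 0 had a Pearson correlation of 0.385 with that at 2D day 4.

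**Figure D4:**
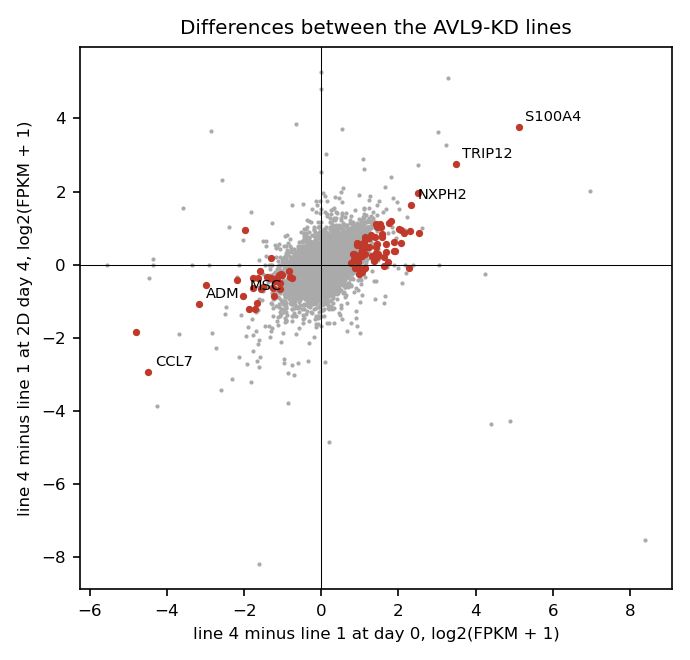
Line 4 minus line 1 in log2(FPKM + 1) at day 0 (horizontal) and 2D day 4 (vertical) for all tested genes, in grey, with the 98 genes called between the lines at day 0 in red. S100A4 and TRIP12 are at the upper right and CCL7 at the lower left, so these genes differed in the same direction at both times. Of the 98 genes 89 did, with the share over all tested genes not given.

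Most day 0 differences had the same direction in 2D culture at day 4, measured with other wild-type libraries. Of the 1576 genes higher at day 0, 1531 were also above wild type at day 4 and 892 were called there, beside 76.0% of all tested genes above wild type and 19.5% called higher at day 4. Of the 544 lower genes 406 were below wild type at day 4 and 104 were called, beside 23.8% of all genes below and 1.93% called lower. The lines are the same, so this is no independent knockdown. In all, 2258 genes (21.4%) were called at day 4, 2054 higher and 204 lower, and 918 higher and 806 lower after quantile normalization; 998 were called without line 1 and 1118 without wild-type day 4 replicate 3. AVL9 read 22.1, 25.1 and 17.9 FPKM in wild type and 6.35 and 3.89 in lines 1 and 4 at day 4. EPAS1 read 0.0342, 0.0476 and 0.0186 FPKM in wild type and 5.71 and 3.86 in the lines (2.47 ± 0.16, beside 3.04 ± 0.15 at day 0; the interaction did not pass, adjusted p = 0.3). FAM171B (2.37 ± 0.15), CD55 (2.11 ± 0.32), CDH2 (2.05 ± 0.48), F3 (2.04 ± 0.19), GORASP2 (1.20 ± 0.13), CDKN1A (1.88 ± 0.30) and PTGS2 (2.30 ± 0.36) were higher at day 4 as well.

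The size of the difference changed between the times in 111 genes (1.05%; an interaction term, 95 or 0.9% more positive and 16 or 0.152% more negative at day 4; 104 and 41 after quantile normalization). It was called in 48 genes without day 0 line 1, 243 without day 0 line 4 and 64 without wild-type day 4 replicate 3. With the line as a block, since the labels pair lines 1 and 4 across the times, 323 genes were called, 273 more positive and 50 more negative. FOS read 21.7, 23.1 and 17.5 FPKM in wild-type cells at day 4 and 36 and 28.9 in lines 1 and 4, so the order of the groups was the reverse of day 0 (interaction 3.56 ± 0.28, adjusted p = 2.50e-07). EGR1 read 59.7, 65.8 and 41.8 FPKM in wild type and 104 and 119.7 in the lines (interaction 3.67 ± 0.29), and FOSB read 0.734, 1.09 and 0.721 and 0.94 and 1.09 FPKM (interaction 4.24 ± 0.41). For FOS and FOSB it was the wild-type level that differed most between the times. EGF read 47.4, 47.8 and 45.5 FPKM in wild type and 38.2 and 60.3 in the lines at day 4, with no difference that passed (interaction 2.41 ± 0.28). PRR15L likewise read 60.3, 60.4 and 52 and 44 and 82.2 FPKM (interaction 2.78 ± 0.53). CLDN2 read 106, 82.5 and 74 FPKM in wild type and 22.1 and 34.7 in the lines, still lower (-1.61 ± 0.31) but by less (interaction 2.22 ± 0.43). SFTPD (interaction 1.74 ± 0.39), CHRM4 (2.39 ± 0.47), PALM3 (1.43 ± 0.27) and SNCG (1.88 ± 0.41) also had smaller differences at day 4. Among the genes that rose at day 0, STEAP2 was still higher at day 4 by less (1.31 ± 0.26, interaction -1.75 ± 0.36), as was UBASH3B (1.22 ± 0.16), while MSC was listed at 0 in all wild-type libraries and in line 4. All of these genes had been named for their day 0 difference, which is a part of the interaction.

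Some lists counted differently at day 4. Of 29 ATF4 targets and tRNA synthetases 2 were higher at day 0 and 27 at day 4 (median 0.09 and 0.89), and of 29 interferon-stimulated genes 6 and 24 (median 0.24 and 0.87), beside 14.9% and 19.5% of all genes. Within the immediate early and AP-1 list 1 gene was higher and 5 lower at day 0, against 10 and 0 at day 4. p53 targets counted 10 higher at day 0 and 12 at day 4, and integrins and focal adhesion genes 9 and 7. These counts are on the deposited scale, on which the median gene lay 0.20 above wild type at day 4. The change of a list as a whole between the times was not tested. Outside the immediate early and tight junction genes, 1 list member was both named and called for the interaction. This was the endoplasmic reticulum stress gene HERPUD1. It fell at day 0 (-0.51 ± 0.15, but -0.31 without line 4) and rose at day 4 (0.75 ± 0.16). Its interaction was 1.25 ± 0.22 (limma, adjusted p = 0.0064).

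**Figure D5:**
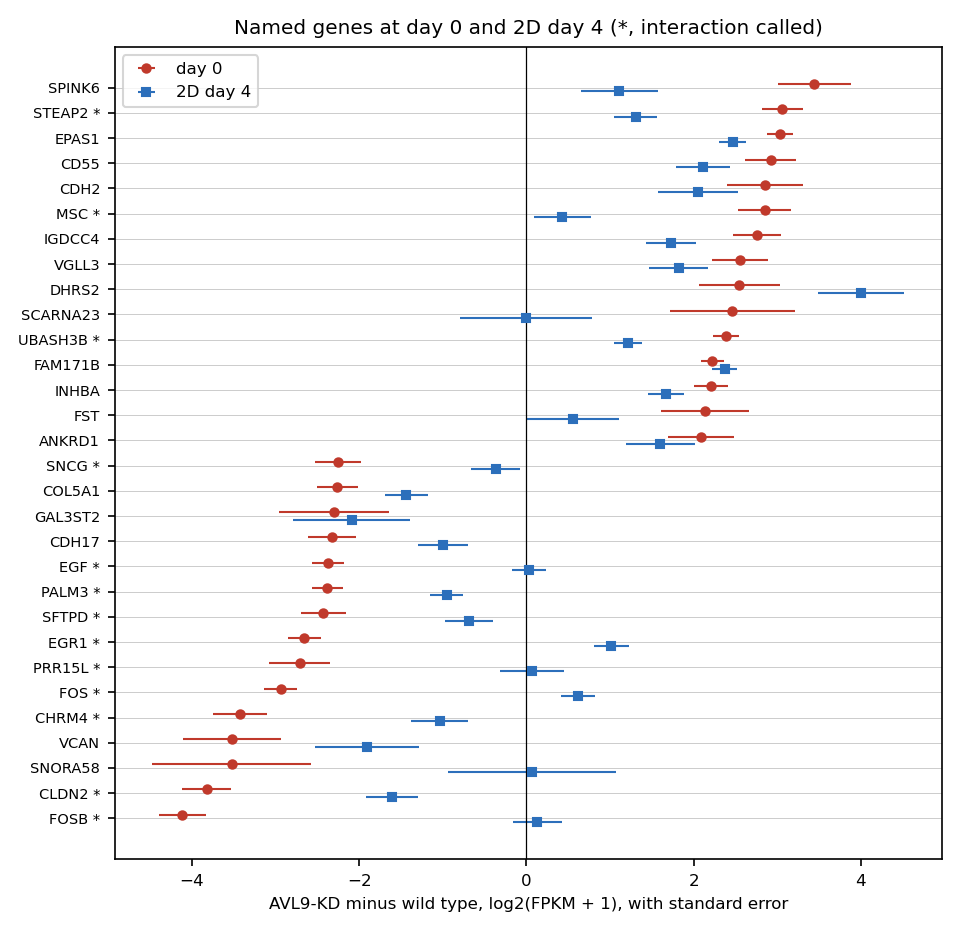
Difference between AVL9-KD and wild type, in log2(FPKM + 1) with its standard error, at day 0 (red circles) and 2D day 4 (blue squares) for the genes with the largest day 0 differences; an asterisk marks a called interaction. EPAS1 and FAM171B lie far to the right at both times, whereas FOS, FOSB, EGR1, EGF and PRR15L, far to the left at day 0, lie at or above 0 at day 4.

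Knockdown of DENND5A at day 0 gives a second genotype that had also gone through a knockdown. AVL9-KD and DENND5A-KD cells differed in 464 genes (4.4%; 317 higher and 147 lower in AVL9-KD), a count that fell to 69 without DENND5A-KD line 1, to 197 without line 2 and to 267 without AVL9-KD line 1, and that split into 182 higher and 302 lower after quantile normalization. AVL9 read 21.5 and 23.6 FPKM in the 2 DENND5A-KD libraries. The gene furthest above DENND5A-KD was SPINK6, at 1.47 and 3.46 FPKM there (AVL9-KD minus DENND5A-KD 3.48 ± 0.51, adjusted p = 4.23e-04). STEAP2 read 2.59 and 2.2 FPKM in DENND5A-KD (2.82 ± 0.28), PTGS2 23.6 and 29.1 (2.79 ± 0.40) and NRP2, a semaphorin and VEGF coreceptor, 1.44 and 1.7 (2.08 ± 0.23). NRP2 read 4.31, 2.08, 2.54 and 2 FPKM in wild type and 10.3 and 9.48 in AVL9-KD lines 1 and 4. GPX2, a glutathione peroxidase, was above DENND5A-KD (2.12 ± 0.42) chiefly through line 4, with 1.65 and 8.7 FPKM in lines 1 and 4.

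Below DENND5A-KD lay COL5A1, at 20.1 and 19.1 FPKM in DENND5A-KD (-2.30 ± 0.28), and EGF, at 7.79 and 8.17 FPKM (-1.94 ± 0.22). The protease CTSK read 57.5 and 63.2 FPKM in DENND5A-KD, 15.4 and 15 in AVL9-KD and 17, 41.1, 35.6 and 32.7 in wild type (-1.92 ± 0.41); it did not pass against wild type (adjusted p = 0.069). The kinase STK26 read 6.06 and 7 FPKM in DENND5A-KD, 0.933 and 1.55 in AVL9-KD and 4.3, 3.7, 2.48 and 3.61 in wild type (-1.76 ± 0.18), so that the knockdowns lay on opposite sides of wild type. Of 16 NF-kB and cytokine genes 7 were above DENND5A-KD and none below, and of 19 NRF2 and AHR targets 4 and none, beside 3% of all genes above and 1.39% below.

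The comparisons of each knockdown with wild type share the wild-type libraries, so their values are set side by side only. DENND5A-KD differed from wild type in 586 genes (5.55%; 322 or 3.05% higher, 264 or 2.5% lower), with 175 called without its line 2 and 237 without its line 1. EPAS1 read 4.58 and 5.75 FPKM in DENND5A-KD (DENND5A-KD minus wild type 2.51 ± 0.15), beside 3.04 ± 0.15 in AVL9-KD. FAM171B differed by 2.16 ± 0.14 in DENND5A-KD and 2.22 ± 0.14 in AVL9-KD, VGLL3 by 2.41 ± 0.34 and 2.55 ± 0.34, and CDH2 by 2.09 ± 0.45 and 2.86 ± 0.45. On the lower side CLDN2 read 0.617 and 0.563 FPKM in DENND5A-KD (-3.19 ± 0.29, beside -3.82 ± 0.29) and CHRM4 3.67 and 3.16 (-2.91 ± 0.32, beside -3.43 ± 0.32). FOS read 35 and 48.3 FPKM in DENND5A-KD, between wild type and AVL9-KD, and the AVL9-KD level was lower than that of DENND5A-KD (-1.10 ± 0.22, adjusted p = 0.0085). For EPAS1 (0.52 ± 0.18), FAM171B (0.07 ± 0.16) and CLDN2 (-0.63 ± 0.34) the direct difference between the knockdowns did not pass, which does not show that their levels were alike.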

How the data were processed

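mRNA of MDCKII cells was measured by sequencing of stranded libraries, per the labels' protocols, and analysed from the FPKM values the authors deposited for 24223 dog genes. The submitters' processing notes name HISAT2 2.1.0, Cufflinks 2.2.1 and the builds canFam3 and CanFam3.1; scaling between libraries beyond FPKM is not given in the sources used here. Without read counts, absolute depth is unknown and counting error cannot be given.

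The deposited FPKM were taken to log2(FPKM + 1). The filter of 1 FPKM in 2 of the 6 libraries left 10554 genes, 1342 of them without a symbol of their own. limma 3.58.1 (trend, R 4.3.3; Python 3.11.15 for tables and plots) was fitted with 13 group means over all 29 libraries, and tests were 2-sided with Benjamini-Hochberg adjustment over all genes. The fit was tested on simulated data. Named were AVL9 and DENND5A, the 15 called genes with a symbol of their own furthest up and down whose groups did not overlap and whose higher mean reached 5 FPKM, up to 3 called members per list by adjusted p, and the 5 furthest each way between the lines and against DENND5A-KD. Some genes that this rule names are not reported here. Other genes are examples chosen after their values were seen. The members and lists were chosen with earlier results of these data known. Alternatives were 3 scalings, a pseudocount of 0.1, other filters, the 6 libraries alone, a term for the 5 wild-type libraries set apart (here called a batch term) or their omission, the latter added after seeing the data, replicate blocks, and leaving out each library.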

Additional observations from a re-analysis of the deposited data

Results flagged for a closer look

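Several named genes had 1 wild-type day 0 library set apart from the other 3, relative to the range of the 4. The gap to the nearest library was above Dixon's critical share of the range for MSC (replicate 2, 0.0336 FPKM), SCARNA23 (replicate 2, 6.88), USH1C (replicate 1, 2.28), HSPB8 (replicate 4, 12.7), LIF (replicate 3, 4.50) and RNF43 (replicate 1, 2.09), all on the log2(FPKM + 1) scale. For MSC and SCARNA23 the other 3 libraries were listed at 0, so any level above 0 passes, and the MSC level was itself close to 0. Without such ties chance alone gives such a gap in about 1 in 20 groups, and 127 named genes were examined.

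The AVL9-KD difference was not the same at day 0 and 2D day 4 in 14 named genes, by the interaction term of limma at an adjusted p under 0.05. It was more positive at day 4 by 4.24 in FOSB, 3.67 in EGR1, 3.56 in FOS, 2.78 in PRR15L, 2.41 in EGF, 2.39 in CHRM4, 2.22 in CLDN2, 1.88 in SNCG, 1.74 in SFTPD, 1.43 in PALM3 and 1.25 in HERPUD1. It was more negative at day 4 in 3 genes, with an interaction of -2.42 in MSC, -1.75 in STEAP2 and -1.17 in UBASH3B. All 14 genes met a naming rule based on their day 0 difference, which is a part of the interaction. That choice favours an interaction opposite in sign to the day 0 difference.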

How the results depend on the processing

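Of 127 named genes 119 were called at day 0, 56 of them under every alternative run; 62 were called with the 6 libraries alone, 69 without line 1 and 90 without line 4. Between the values without line 4 and without line 1, S100A4 went from -3.86 to 1.25, TRIP12 went from -3.25 to 0.24, GJB2 went from -2.07 to 0.43, NXPH2 went from -1.35 to 0.98, NDNF went from -1.65 to 0.64, CCL7 went from 4.16 to -0.32 and ADM from 2.52 to -0.64, each turning sign without line 1; no other setting turned a named gene. The day 0 count of 2120 was 552 with the 6 libraries alone, where 4 residual degrees of freedom replace 16, and 769 (without line 1) to 2570 (without wild-type replicate 1) with 1 library left out; without wild-type replicate 4 it was 1331. It stayed within 1.5 times under each scaling, pseudocount, filter, batch and block setting. For line 4 against wild type 770 genes became 1249 with a batch term and 1357 without the 5 libraries set apart. Line 4 against line 1 gave 98, and 154 with quantile, 239 with median-ratio and 205 with trimmed-mean scaling, 346 without a filter, 58 with a filter of 5 FPKM and 175 with a batch term.

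At 2D day 4 the 2258 calls ranged from 998 (without line 1) to 2302 with 1 library left out, and were 1118 without wild-type replicate 3. The 111 interaction calls became 199 without a filter and 72 with a filter of 5 FPKM, and ranged from 48 (without line 1 at day 0) to 243 (without line 4 at day 0), with 64 without wild-type day 4 replicate 3. AVL9-KD against DENND5A-KD gave 464, and 853 with a batch term and 710 without the 5 libraries, from 69 to 474 with 1 library left out. DENND5A-KD against wild type gave 586, and 368 with a filter of 5 FPKM, from 175 to 599 with 1 library left out, lowest without DENND5A-KD line 2 and 237 without line 1. The causes were not tested.

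Whether replicate numbers pair wild-type with knockdown samples could not be decided. Deviations of same-numbered libraries from their group means correlated at -0.01 and -0.09. With 2 knockdown libraries those deviations mirror each other, so wild-type replicates 1 and 4 gave 0.01 and 0.09 with the line of the other number. With the replicate number as a block 2527 genes were called at day 0 and 1175 against DENND5A-KD. The line number pairs day 0 with day 4 by the labels, and with the line as a block 2064 genes were called at day 0 and 323 in the interaction. With no read counts, what depth limits cannot be stated.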
